A study of Mus musculus with 4 samples.

Results

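The interferon response genes described here are 41 mouse genes that interferons are known to induce: antiviral effectors, sensors of foreign nucleic acid, transcription factors and feedback regulators, interferon-inducible GTPases and chemokines. They were chosen by symbol, by a rule that uses no measured value, although earlier results of these data were known when the list was drawn up. A probe was named for 40 of the 41 genes among the 16593 genes with a named probe on the array. Of these 40, 32 were bright enough to be tested, and they made up 32 of the 8716 genes tested. Ifi44 was the member with no named probe.

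The study asked how gene expression in the mouse changes when Snd1 is lost, a protein that binds RNA and assists transcription factors. Spleen RNA of 2 wild-type (WT) and 2 Snd1 knockout (KO) female mice of the C57BL/6N strain, aged 8 to 12 weeks, was hybridised with a biotin label to Illumina MouseRef-8 v2.0 bead arrays, 1 array per sample. That age range is the one the methods give for spleen RNA, whereas the legend of the study's array figure gives 8 weeks. In the KO the first exon of Snd1 was removed in all tissues by Cre recombinase, from an allele that had been targeted in stem cells of a 129 background before backcrossing to the strain named. The labels name no infection or interferon treatment, so the comparison concerned resting levels of these genes and not their induction.

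Interferons are secreted proteins with which cells announce infection. Type I interferons signal through receptors present on nearly every cell, and interferon gamma, made mainly by T cells and natural killer cells, signals through a receptor of its own. Both receptors activate Janus kinases and STAT proteins. A complex that holds Stat2 and Irf9 binds the interferon-stimulated response element (ISRE), and interferon gamma acts through the gamma-activated site (GAS). The spleen filters blood, and its macrophages, dendritic cells and B cells keep a low level of many of these genes active without infection.

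The promoters of the members carried the letters of these elements more often than promoters at large. RefSeq windows of 300 bases, from 250 before to 50 after the annotated start (GRCm38.p6), were at hand for 30 of the 41 members. The ISRE core, searched as GAAA, any 2 bases and GAAA again, and on the other strand as TTTC, any 2 bases and TTTC, lay in a window of 17 of 30 members (56.7%), against 1079 of 27025 genes with a window (3.99%). The GAS letters, TTCNNNGAA, which read alike on both strands, lay in a window of 8 of 30 members (26.7%), against 9.55% of all genes. Either motif was found for 21 of 30 members (70.0%), against 12.9% of all genes. A match of letters is a description and not a site of binding, and overlapping matches were each counted within a gene only once. All 4 GTPase members with a window held the ISRE core, as did 10 of 18 effectors and 2 of 3 sensors. None of the 3 transcription factors with a window held it, and Irf1 held the GAS letters.

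The stretches below show how these letters stood before the start of effectors, GTPases, a chemokine and a transcription factor on which the values turn. Each is written 5′ to 3′ on the gene's own strand, with the motif letters in capitals.
Isg15 (chr4:156200871-156200900, minus strand): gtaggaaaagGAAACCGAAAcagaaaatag
Rsad2 (chr12:26456553-26456582, minus strand): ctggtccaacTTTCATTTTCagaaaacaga
Apobec3 (chr15:79892258-79892287, plus strand): catcagttagTTTCCCTTTCtctttgcgat
Ifit3 (chr19:34583363-34583392, plus strand): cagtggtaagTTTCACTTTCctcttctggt
Gbp2 (chr3:142620594-142620623, plus strand): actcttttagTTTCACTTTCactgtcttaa
Igtp (chr11:58199512-58199541, plus strand): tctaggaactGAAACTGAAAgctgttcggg
Cxcl10 (chr5:92349083-92349112, minus strand): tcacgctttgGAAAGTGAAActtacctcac
Irf1, GAS (chr11:53769914-53769942, plus strand): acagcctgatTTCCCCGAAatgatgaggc

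Counted from the start as 0, with negative positions before it, the ISRE letters shown began at -72 in Isg15, where 3 matches overlapped, at -120 in Rsad2, -140 in Apobec3, -156 in Ifit3, -59 in Gbp2, -34 in Igtp and -213 in Cxcl10. In Irf1 the GAS letters began at -90. The positions of all matches, by distance from the start, are in the map of motif matches.

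**Figure D1:**
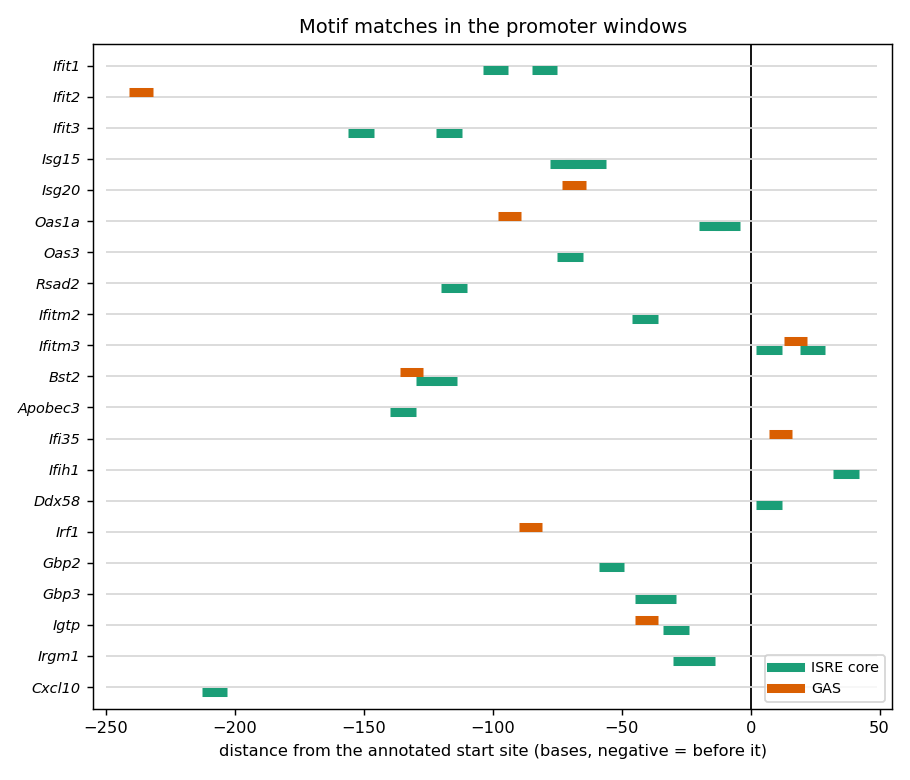
Positions of ISRE core and GAS letter matches in the promoter windows of the 21 members that held either motif, as the distance in bases from the annotated start site (negative before it). Bars mark matches on either strand and grey lines the 300-base windows; most matches lay before the start, and those of Ifitm3, Ifi35, Ifih1 and Ddx58 after it.

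Between 12396 and 12908 of the 25697 probes were detected on an array, and 32 or 33 of the 40 members were detected on each. The Snd1 probe gave 6.71 and 7.09 (log2) on the WT arrays and 4.45 and 4.58 on the KO arrays, where it was not above background, so that Snd1 was at least 3.86-fold lower in KO (limma, adjusted p = 0.0871). B cell markers (8 of 8) were detected on every array and 7 or 8 of 9 T cell markers, as a spleen should show. The 2 KO samples also held markers of neighbouring organs: 9 of 11 liver markers were detected on both KO arrays and at most 1 on a WT array, 9 of 10 exocrine pancreas markers on KO replicate 1 against 2 or 3 elsewhere, and 5 of 8 adipocyte markers on KO replicate 2 against 3 on KO replicate 1 and 0 in WT. Neutrophil granule genes summed to 17122 and 14367 intensity units in WT and to 10745 and 5136 in KO. Whether these differences in tissue makeup had a part in the values below was not tested, and in a bulk sample fewer cells of a type and less RNA per cell cannot be told apart. Correlations between arrays over all tested probes were 0.972 to 0.984, and over the 32 members 0.951 to 0.977.

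No interferon response gene passed the adjusted threshold of 0.05 for a difference between KO and WT spleens. Of the 32 members tested with limma, with p-values adjusted by the Benjamini-Hochberg method over the 12493 probes tested, 0 passed, against 2 of all 8716 genes (0.0229%) and 2 of all probes (0.016%), and 0 passed under each of the 13 other settings tried, among them an unmoderated test. At an unadjusted p under 0.05, 1 member was higher in KO (Ifitm1) and 0 were lower, against 3.49% of all genes higher and 2.51% lower, so the members' count was near the background. With no background correction, with an offset of 50 and with the authors' value table, the count was 0 higher and 1 lower (Ifitm3), and Ifitm1 no longer had an unadjusted p under 0.05. The 2 KO values lay wholly above or below the 2 WT values for 10 of 32 members, 3 higher and 7 lower, against 38.2% of all genes. Each member is represented by its tested probe of highest mean over the 4 arrays, and other tested probes are given where their difference had the other sign. Mean levels were higher in KO for 15 members and lower for 17. The median KO minus WT difference was -0.02 (log2), with quartiles of -0.20 and 0.19, and that of all genes 0.00. The members varied somewhat more than other genes: their median absolute difference was 0.20 against 0.15.

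With 2 arrays per group the fit could bound these differences but seldom closely. The 95% interval of the difference lay within 1 log2 unit of 0, a 2-fold change, for 24 of 32 members, against 87.9% of all genes. It lay within 1.5-fold for 8 of 32 members, against 42.2% of all genes. For 26 of 32 members the larger of the gaps between arrays of the same group exceeded the difference between the groups, against 74.1% of all genes. The plot of differences and intervals shows the width of each.

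**Figure D2:**
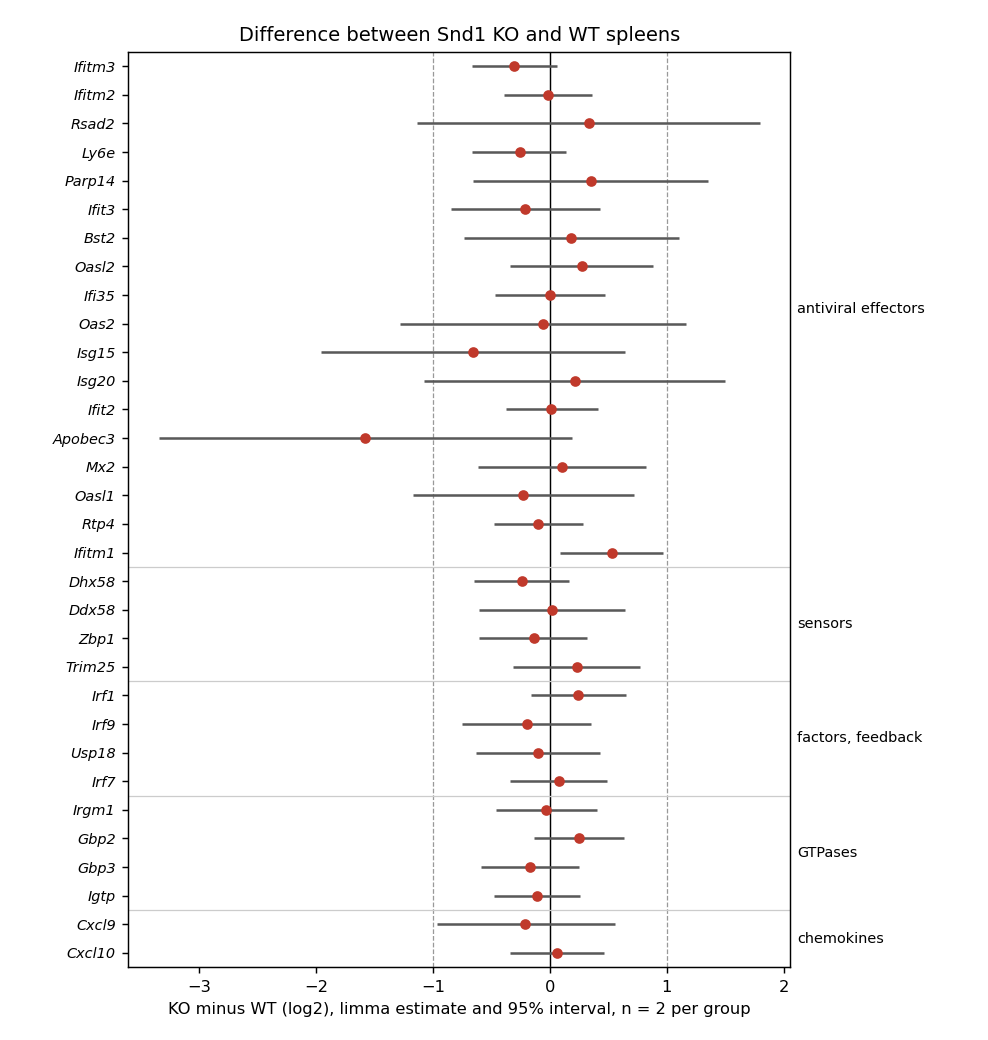
KO minus WT difference (log2, x axis) of the 32 tested members by role (y axis), with the limma estimate as a point and its 95% interval as a bar, n = 2 arrays per group. Dashed lines mark 1 log2 unit; the interval of Ifitm1 alone lay wholly on one side of 0, and the widest belonged to Apobec3, Rsad2, Isg15 and Isg20.

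The antiviral effectors act on viruses directly or on viral RNA and protein in the cell, and 18 of the 25 listed were tested. Their means were higher in KO for 9 and lower for 9, with a median difference of -0.01 (log2). The largest difference of any member was that of Apobec3, a cytidine deaminase that mutates and blocks retroviruses. Its log2 intensity was 7.50 and 8.33 in WT and 7.33 and 5.34 in KO. KO replicate 2 lay well below the other 3 arrays, and KO replicate 1 only just below the lower WT array. The difference was -1.58 ± 0.69 (log2, SE, n = 2 per group), or 2.99-fold lower, with a 95% interval of -3.35 to 0.19, and did not pass (limma, adjusted p = 0.771). Without KO replicate 2 it was -0.59, and with no background correction -0.91. Apobec3 was the 1 member that differed by at least 1 log2 unit, a size reached by 1.04% of all genes.

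The Ifitm genes encode small membrane proteins that hinder viruses from fusing with endosomal membranes, and all 3 listed were tested. Ifitm3, the member of the family best known for restricting influenza virus, was at 12.09 and 12.10 in WT and 11.84 and 11.73 in KO. Both KO arrays lay below both WT arrays, which were nearly equal. The difference was -0.31 ± 0.14 (log2, SE), or 1.24-fold lower, with a 95% interval of -0.67 to 0.06 (limma, adjusted p = 0.771). Ifitm2 lay at 11.71 and 11.60 in WT and at 11.71 and 11.57 in KO, and the groups overlapped with a difference of -0.02 ± 0.15 and a 95% interval of -0.39 to 0.36. Ifitm1 was close to the detection limit, where the probe of highest mean gave 5.37 and 5.06 in WT and 5.80 and 5.69 in KO, the groups did not overlap, and the difference was 0.53 ± 0.17 (limma, adjusted p = 0.771). With no background correction it was 0.19. The other Ifitm1 probes gave differences of 0.15 and -0.06, each with overlapping groups.

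Isg15 encodes a ubiquitin-like protein that is attached to other proteins in infected cells. Its log2 intensity was 8.86 and 7.44 in WT and 7.18 and 7.80 in KO. WT replicate 1 stood above the other 3 arrays, and the groups overlapped. The difference was -0.66 ± 0.51 (log2, SE), with a 95% interval of -1.96 to 0.64 (limma, adjusted p = 0.807). Without WT replicate 1 it was 0.05. Rsad2 encodes viperin, which makes a chain-terminating nucleotide that stops viral polymerases. It ranged further still between samples of the same genotype, at 12.08 and 10.61 in WT and 11.19 and 12.16 in KO, with a difference of 0.33 ± 0.57. Isg20, an exonuclease of viral RNA, likewise spread from 8.01 to 6.48 in WT and lay at 7.52 and 7.39 in KO, with a difference of 0.21 ± 0.50. In these 3 genes WT replicate 1 lay 1.42, 1.48 and 1.53 above WT replicate 2, in the order given.

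Ly6e, a membrane protein that restricts coronaviruses, was 11.10 and 11.28 in WT and 10.84 and 11.01 in KO, with no overlap and a difference of -0.26 ± 0.16 (log2, SE; limma, adjusted p = 0.771). Parp14, an ADP-ribosyltransferase, was 9.94 and 11.07 in WT and 10.72 and 10.98 in KO, a difference of 0.35 ± 0.39 with the WT arrays on either side of the KO arrays. Bst2 encodes tetherin, which holds budding viruses to the cell surface. It was 8.55 and 8.56 in WT and 9.26 and 8.21 in KO, so that the KO arrays enclosed the WT arrays, and the difference was 0.18 ± 0.36.

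The Ifit proteins bind foreign RNA ends. The Oas proteins are the enzymes that make the 2′-5′ oligoadenylates which activate RNase L, and the Oasl proteins are related to them. Ifit3 gave 9.61 and 9.20 in WT and 8.93 and 9.46 in KO, a difference of -0.21 ± 0.25 (log2, SE), and its other probes gave -0.15 and -0.17. All 3 probes had their lowest value on KO replicate 1. Ifit2 lay at 7.36 and 7.22 in WT and 7.22 and 7.38 in KO by the probe of highest mean, with a difference of 0.01 ± 0.15, and its other probe gave -0.38 ± 0.23 with KO below WT. Oasl2 was 7.92 and 8.21 in WT and 8.06 and 8.61 in KO (0.27 ± 0.24). Oasl1 was 6.25 and 6.45 in WT and 5.59 and 6.66 in KO (-0.23 ± 0.37), with -0.56 ± 0.43 by its other tested probe, and Oas2 was 7.56 and 8.32 in WT and 7.26 and 8.49 in KO (-0.06 ± 0.48). By the probes of highest mean, KO replicate 2 was the highest array in each of these 3 genes, and in Oasl1 and Oas2 KO replicate 1 was the lowest. The remaining tested effectors, Mx2, Ifi35 and Rtp4, differed by 0.10, 0.00 and -0.10.

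Several classical interferon-induced genes were at the background of the array in every sample. Ifit1, Oas1a, Oas3 and Xaf1 among the effectors, Ifih1 (Mda5) among the sensors and Iigp1 among the GTPases were detected on no array. Mx1 was detected on WT replicate 2 and KO replicate 2 only, and Parp9 on WT replicate 1 only. Their values have only a bound, and no fold is given for them. A probe can also be dim because it binds its transcript poorly, so levels of different genes are not compared.

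Cytoplasmic sensors recognise viral nucleic acid and start the production of interferon, and 4 of the 5 listed were tested. Ddx58 (RIG-I), a sensor of viral RNA with uncapped ends, was 7.23 and 7.42 in WT and 7.04 and 7.65 in KO, a difference of 0.02 ± 0.24 (log2, SE). Dhx58 (Lgp2), a relative that regulates RIG-I and Mda5, was 8.22 and 8.32 in WT and 7.91 and 8.14 in KO, with no overlap and a difference of -0.24 ± 0.16 (limma, adjusted p = 0.774). Zbp1, a sensor of nucleic acid in the Z conformation, was 6.29 and 6.26 in WT and 5.94 and 6.32 in KO (-0.14 ± 0.18). All 3 genes were lowest on KO replicate 1. Trim25, a ubiquitin ligase that assists RIG-I, was near the detection limit at 4.83 and 5.27 in WT and 5.14 and 5.41 in KO (0.23 ± 0.21), and WT replicate 1 was not above background. The median difference of the sensors, -0.06, turned to 0.19 when KO replicate 1 was left out and fell to -0.31 when KO replicate 2 was.

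Irf1, Irf7 and Irf9 are transcription factors of the pathway, and Usp18 is a protease that removes Isg15 from proteins and dampens signalling at the type I receptor. All 4 were tested. Irf1, which interferon gamma induces through a GAS, was at 12.21 and 12.45 in WT and 12.54 and 12.60 in KO, with no overlap and a difference of 0.24 ± 0.16 (log2, SE; limma, adjusted p = 0.771). Its other 4 probes gave differences from -0.09 to -0.02, each with overlapping groups. Irf7, the factor that amplifies type I interferon production, was 7.14 and 6.92 in WT and 7.02 and 7.20 in KO (0.08 ± 0.16). Irf9, the DNA-binding part of the ISRE complex, was 10.40 and 10.48 in WT and 9.98 and 10.50 in KO (-0.20 ± 0.22). KO replicate 1 alone was low, and the other 3 arrays lay close together. The second Irf9 probe showed the same array lowest, at 8.16 against 8.75, 9.06 and 8.83 on WT replicates 1 and 2 and KO replicate 2. Usp18 was 9.05 and 8.96 in WT and 8.67 and 9.15 in KO (-0.10 ± 0.21). Another Usp18 probe was lower on both KO arrays, 7.11 and 7.79 against 8.02 and 7.96, with a difference of -0.54 ± 0.26 (limma, adjusted p = 0.771), and all 3 Usp18 probes were lowest on KO replicate 1.

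The interferon-inducible GTPases coat and break the vacuoles in which bacteria and protozoa hide, and 4 of the 5 listed were tested. Gbp2, a guanylate-binding protein, was 10.51 and 10.64 in WT and 10.89 and 10.75 in KO, with no overlap and a difference of 0.25 ± 0.15 (log2, SE; limma, adjusted p = 0.771). Its other tested probe gave -0.03 ± 0.15, with overlap. Gbp3 was 9.78 and 10.07 in WT and 9.75 and 9.77 in KO (-0.17 ± 0.16), again with no overlap, and its second probe gave 0.13 ± 0.19. Igtp (Irgm3) was 9.93 and 9.81 in WT and 9.72 and 9.80 in KO (-0.11 ± 0.14). Irgm1, a regulator of the family, was 12.36 and 12.50 in WT and 12.26 and 12.53 in KO (-0.03 ± 0.17), and its other tested probe gave 0.17 ± 0.25. The 95% interval of Igtp, -0.48 to 0.26, lay within 1.5-fold, and so did that of Irgm1, -0.46 to 0.40.

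Cxcl9 and Cxcl10 are chemokines that draw activated T cells and natural killer cells through the receptor Cxcr3. Cxcl9, induced mainly by interferon gamma, was 10.61 and 10.58 in WT and 10.81 and 9.97 in KO (-0.21 ± 0.30, log2, SE). The KO arrays lay on either side of the WT arrays, which were nearly equal. Cxcl10, induced by both kinds of interferon, was 8.05 and 8.16 in WT and 8.06 and 8.27 in KO (0.06 ± 0.16), with a 95% interval of -0.34 to 0.46.

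**Figure D3:**
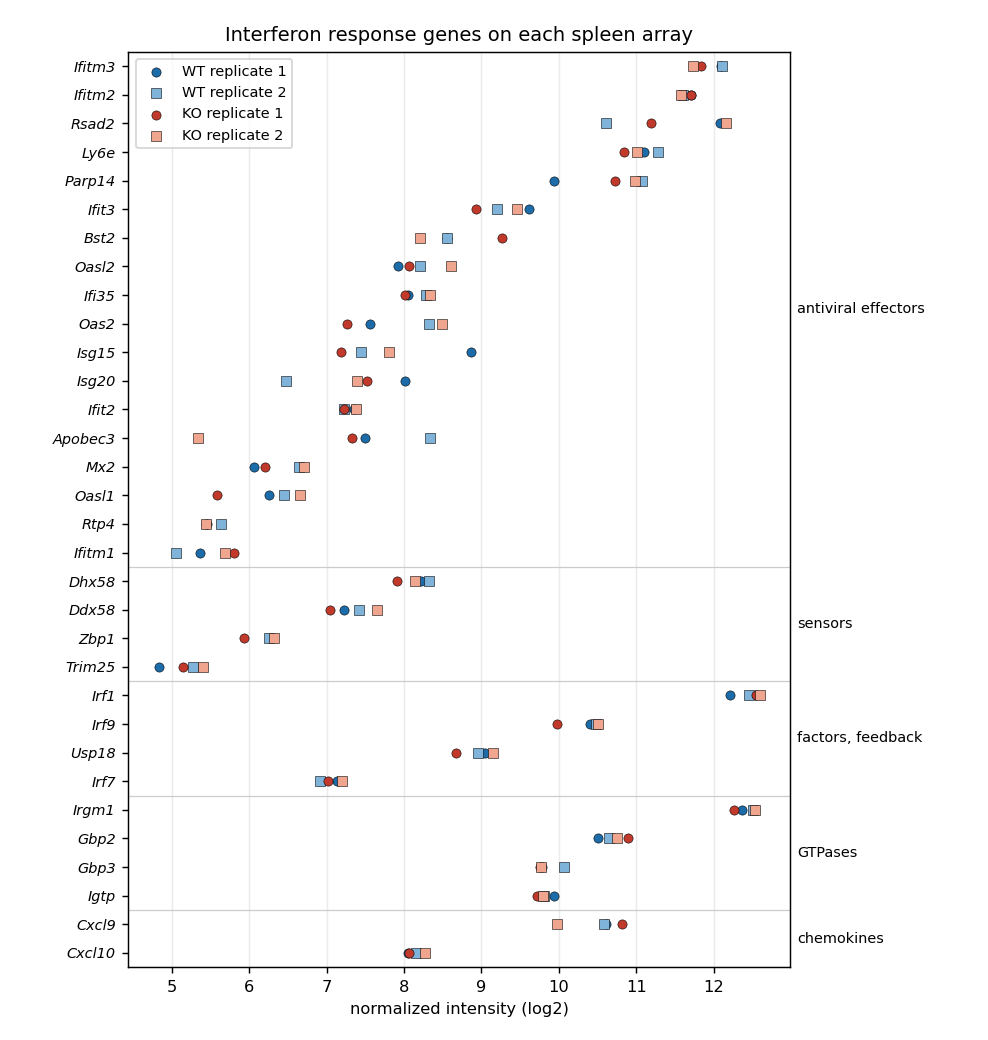
Normalized log2 intensity (x axis) of the 32 tested members by role (y axis) on each of the 4 arrays, each member by its probe of highest mean (blue WT, red KO, circles replicate 1, squares replicate 2). The KO points fall among the WT points for most members, and the spread between arrays of the same colour is widest for Apobec3, Isg15, Isg20, Rsad2, Oas2, Parp14, Bst2 and Oasl1.

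The 2 KO samples differed from each other in the members as a group. KO replicate 1 was the lowest of the 4 arrays for 14 of 32 members (43.8%), against 24.2% of all genes, and KO replicate 2 the highest for 16 of 32, against 23.3%. KO replicate 1 lay below KO replicate 2 for 23 of 32 members (71.9%), against 51.5% of all genes. The median absolute gap between the KO arrays was 0.27 (log2) for the members and 0.18 for all genes, whereas the gap between the WT arrays was 0.20 for both. Relative to each gene's mean over the 4 arrays, the members had a median of -0.10 on KO replicate 1 and 0.12 on KO replicate 2, and of 0.03 and 0.07 on the WT arrays. All 4 sensors and all 4 transcription and feedback factors were lower on KO replicate 1, as were 11 of 18 effectors, 3 of 4 GTPases and 1 of 2 chemokines. The exceptions with the widest gaps were Apobec3, Bst2 and Cxcl9, which lay 1.98, 1.05 and 0.84 higher on KO replicate 1. The comparison is between 2 samples and has no test, and the comparison of the gaps was made after the values were seen.

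**Figure D4:**
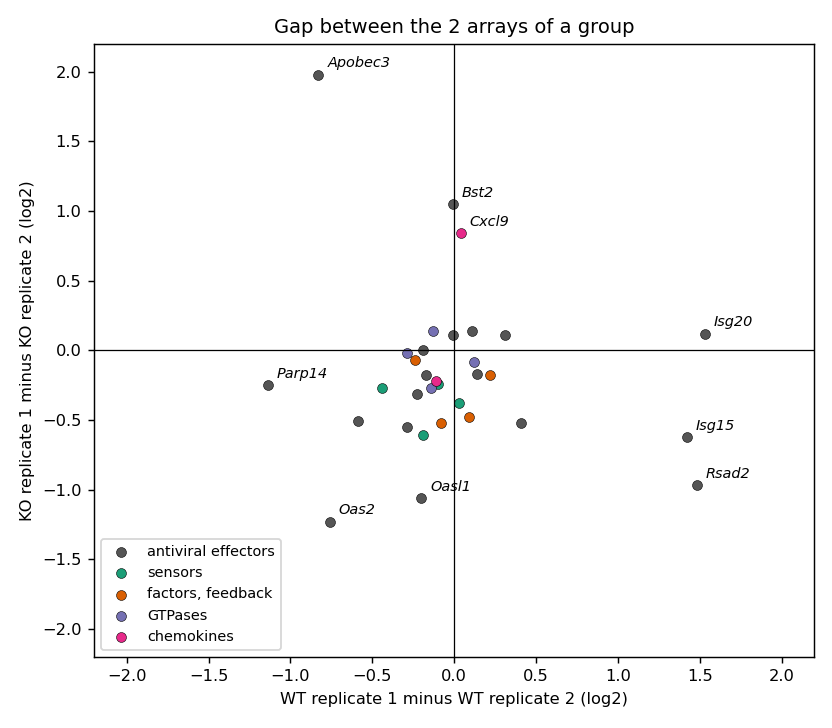
Gap between the 2 WT arrays (x axis, replicate 1 minus replicate 2, log2) against the gap between the 2 KO arrays (y axis, likewise) for the 32 tested members, coloured by role, with the genes of the widest gaps named. Most points lie below 0 on the y axis, where KO replicate 1 was lower than KO replicate 2, with Apobec3, Bst2 and Cxcl9 above it.

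Markers of some cell types followed the same order of the KO arrays and those of others the opposite order, against a share of 51.5% of all genes lower on KO replicate 1 than on KO replicate 2. The 8 tested markers of plasmacytoid dendritic cells, the main makers of type I interferon, were lower on KO replicate 1 than on KO replicate 2 in 7 of 8, and 8 of the 9 on the array were detected in every sample. The summed intensity of these 9 was lowest on KO replicate 1, at 6548, against 8829 on KO replicate 2 and 7834 and 10770 in WT. The sum is linear, so the brightest genes of the list, Ly6d and Tcf4, weigh most in it. Within that list Cox6a2 differed most between the genotypes, at 6.79 and 7.69 in WT and 5.43 and 5.94 in KO (limma, adjusted p = 0.771). Upb1 followed at -0.63 (KO minus WT, log2), whereas Spib, Pacsin1 and Tcf4 differed by 0.08, 0.01 and -0.00. Of the 8 tested, 6 had lower means in KO and 2 higher. Siglech, a surface receptor that defines these cells, was 8.84 and 9.55 in WT and 7.93 and 9.27 in KO. B cell markers were lower on KO replicate 1 in 7 of 8, with a sum of 12797 on KO replicate 1, 18322 on KO replicate 2 and 15235 and 19754 in WT. So were monocyte markers in 3 of 4, mesothelium and capsule markers in 4 of 5 and adipocyte markers in 3 of 3. Fibroblast and smooth muscle markers were so in 6 of 10, and red pulp and marginal zone macrophage markers in 5 of 10. In the opposite order, neutrophil granule genes were lower on KO replicate 1 than on KO replicate 2 in 0 of 13, T cell markers in 1 of 8, NK cell markers in 1 of 5 and liver markers in 1 of 9. The exocrine pancreas markers had their excess on the same array, with a sum of 5466 on KO replicate 1 against 431 to 592 on the other 3. Whether these cells had a part in the gap between the KO arrays was not tested.

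None of the genes that make and transmit the interferon signal passed the threshold either. Of 35 interferons, receptors and signal transducers listed, 32 were on the array and 18 were tested, 0 of which passed and 0 of which had an unadjusted p under 0.05. Their means were higher in KO for 9 and lower for 9, with a median of 0.00 (log2). KO replicate 1 lay below KO replicate 2 for 14 of 18 (77.8%), against 51.5% of all genes. It was the lowest array for 7 of 18 (38.9%), against 24.2% of all genes. Ifnb1, the receptor chain Ifnar1 and the feedback inhibitor Socs1 were too dim to test. Ifng was near background at 5.30 and 5.11 in WT and 5.02 and 5.49 in KO (0.05 ± 0.21). The other receptor chains overlapped between the groups, with differences of 0.06 ± 0.17 for Ifnar2, -0.09 ± 0.16 for Ifngr1 and 0.05 ± 0.19 for Ifngr2, and the transducer Stat2 differed by -0.07 ± 0.15. The smallest p in the list belonged to Ifna6, a type I interferon, at 6.46 and 6.41 in WT and 6.12 and 6.13 in KO, a difference of -0.31 ± 0.14 (limma, adjusted p = 0.771). Ifna genes are close copies of each other, so the probe may not tell them apart. Next came the kinase Ikbke at -0.30 ± 0.18, Irf3, the factor that first switches on interferon beta, at 0.15 ± 0.15, and the adaptor Ticam1 at -0.14 ± 0.16.

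A wider list of interferon-inducible genes, which shares no gene with the 41 members, was tested for 34 of the 42 on the array (51 listed). None passed, and 1 (2.94%) had an unadjusted p under 0.05, lower in KO, against 2.51% of all genes lower. Means were lower in KO for 22 (64.7%) and higher for 12, against 49.3% of all genes lower, with a median of -0.08 (log2). The groups did not overlap for 5 higher and 3 lower, against 20.6% and 17.6% of all genes. The smallest p was that of Psmb8, an immunoproteasome subunit, at 8.60 and 8.83 in WT and 8.23 and 8.34 in KO, a difference of -0.43 ± 0.16 (limma, adjusted p = 0.771). Lgals3bp, a secreted glycoprotein, was higher on both KO arrays, 11.09 and 10.97 against 10.80 and 10.60 (0.33 ± 0.16). Ube2l6, the enzyme that hands Isg15 to its targets, was 8.93 and 8.13 in WT and 8.27 and 7.84 in KO (-0.47 ± 0.32), with overlap. Gbp7 was 7.07 and 7.09 in WT and 6.85 and 6.90 in KO (-0.20 ± 0.14). The order of the KO arrays recurred in this list, as it did among the interferons, receptors and signal transducers, on the same arrays. KO replicate 1 was the lowest array for 20 of 34 genes (58.8%), against 24.2% of all genes. It lay below KO replicate 2 for 26 of 34 (76.5%), against 51.5% of all genes.

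The presence of ISRE letters in the promoter window was set beside the direction of difference. The 13 tested members with the ISRE core had a median KO minus WT difference of -0.03 (log2), 5 higher and 8 lower. The 11 tested members with a window and no ISRE core had a median difference of 0.08, 8 higher and 3 lower. KO replicate 1 lay below KO replicate 2 for 8 of the 13 and for 8 of the 11. These are descriptions of small groups whose genes share the same 4 arrays, with no test.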

How the data were processed

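The probe signals are linear intensity values, which the authors took from Illumina Genome Studio and deposited as they were, neither normalized nor background-subtracted. Its detection column was deposited as a fraction that rose with the signal, and it was read as 1 minus the detection p-value. The authors also deposited a log2 value table. Set against the signals, it held their log2, quantile normalized over the 4 arrays without background correction, for every probe but 1 on KO replicate 1, which differed by 9.48 (log2). It served as an alternative. No slide or scan batch was named for any array, and none was tested. For the comparison, the methods name a 2-group test in Chipster.

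For the values given above, background was removed by normexp, with negative controls estimated from detection p-values and an offset of 16, before quantile normalization and log2 transformation (limma 3.58.1, R 4.3.3). The test took the 12493 of 25697 probes that were detected (p under 0.05) on each array of WT, of KO or of both. A symbol was given for 23978 probes by the platform annotation, and 1719 were unnamed here. lmFit and eBayes gave the comparison, on 2 residual degrees of freedom (5.04 with the prior), and p-values were adjusted by Benjamini-Hochberg over every probe tested. The fit was checked on 10 rounds of simulated data with 200 changed probes each. At the adjusted threshold it recovered 8.51% of the 2-fold changes, 83.9% of the 4-fold and 94.7% of the 8-fold, and 4.89% of its calls were false. Most 2-fold differences would thus be missed. These shares hold for that number and mix of planted changes and cannot be carried over to the data, in which 2 probes were called. Differences above 4-fold did not all pass there. Snd1 differed by -2.39 ± 0.19 (log2, SE; limma, adjusted p = 0.0871). The mesothelium marker Upk3b differed by 2.14 ± 0.15 (limma, adjusted p = 0.0801). An exact permutation test of 2 arrays against 2 cannot go below p = 0.333, so none was run. The labels do not say how the samples of a genotype relate, and the methods call them biological duplicates. The number of arrays limits the precision of every value. Snd1 was not above background on the KO arrays, and its fold sets the WT mean against a bound, which on each KO array is its own value or the lowest value of any detected probe, whichever was higher. Levels of families of close copies (Ifna, Ifit, Oas, Gbp) may be shared between genes, since probe sequences were not used here.

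Values on every array are given, in each role, for up to 8 members with the smallest p and the 2 of highest mean. In pathway lists up to 4 genes with the smallest p are named, besides the receptors, Stat2, Ifng and Ifnb1. Rsad2, Isg20, Bst2, Oasl1 and Oas2 were added for their gaps between arrays, and Ifit2 for the sign of its other probe, after their values were seen. The members and lists were chosen with earlier results of these data known. Promoter windows of GRCm38.p6 came from RefSeq, and 30 of 41 members matched by symbol. As alternatives, the fit was repeated with scaling to the median, with no background correction, with the offset at 50, on the values the authors deposited, with every probe, with only probes at a detection p under 0.01 on each of the 4 arrays, with the mean over a gene's probes, with a trend and robust prior, without moderation, with the replicate number as a block, and with 1 array left out at a time.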

Additional observations from a re-analysis of the deposited data

How the results depend on the processing

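The count of interferon response genes called was 0 under each of the 13 other settings in which calls were counted (the mean over a gene's probes was run for the medians only), and the smallest adjusted p of a member ranged from 0.322 without WT replicate 1 to 1.0 without KO replicate 1. Over all probes 2 were called, and the count was 3 with median scaling, 3 when each array had to reach a detection p under 0.01, 4 with an offset of 50, 8 with a trend and robust prior, and 0 with no background correction, with the authors' value table, with no filter and with no moderation. It ranged from 0 to 16 when an array was left out, with 16 without WT replicate 1 and 0 without each of the others. The causes were not tested. The median KO minus WT difference of the members (-0.02, log2) was 0.12 without KO replicate 1, -0.15 without KO replicate 2 and between -0.07 and 0.02 under the other settings. The counts of members lower on KO replicate 1 than on KO replicate 2 (23) and lowest on KO replicate 1 (14) were the same under 4 other normalizations, which were chosen after seeing the data. The strict detection filter left 28 members.

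The replicate number in the titles gave 2 pairs, and deviations from the group means correlated at 0.188 between same-numbered arrays over all tested probes and at -0.158 over the members (across probes, which are not independent replicates). Nothing in the labels ties the numbers to a litter or day, so they were not taken as pairing. By the methods the experiments used littermates of heterozygous parents, and the authors' PCR test of spleen genes was paired. Whether same-numbered arrays came from littermates was not stated. With the replicate block 0 probes and 0 members were called, and the smallest adjusted p of a member was 0.584.

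With median scaling, Ifitm2 turned to 0.03 and Irgm1 to 0.00 (KO minus WT, log2). When each array was left out in turn, the sign changed for 21 members. The brackets below give the lowest and highest difference over all of these fits, not the values before and after the omission named. Those that turned without KO replicate 1 were Ifit3 (-0.47 to 0.05), Oas2 (-0.67 to 0.56, also without WT replicate 2), Oasl1 (-0.76 to 0.31), Bst2 (-0.35 to 0.70), Zbp1 (-0.33 to 0.05), Irf9 (-0.46 to 0.06), Usp18 (-0.34 to 0.14) and Irgm1 (-0.17 to 0.10, also without WT replicate 2). Those that turned without KO replicate 2 were Oasl2 (-0.01 to 0.54), Cxcl9 (-0.63 to 0.21), Cxcl10 (-0.05 to 0.16), with WT replicate 2 also Ifit2 (-0.07 to 0.10), Rsad2 (-0.40 to 1.07) and Irf7 (-0.03 to 0.19), and with WT replicate 1 also Mx2 (-0.20 to 0.39), Ifitm2 (-0.08 to 0.05), Ifi35 (-0.16 to 0.16) and Ddx58 (-0.29 to 0.33). Isg15 (-1.37 to 0.05) and Parp14 (-0.22 to 0.91) turned without WT replicate 1, and Isg20 (-0.55 to 0.98) without WT replicate 2. The other 11 members kept their sign, Apobec3 and Ifitm1 among them.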
